A study of Mus musculus with 16 samples.

Results

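The 39 Hox genes that RefSeq names for the mouse lie in 4 clusters, HoxA on chromosome 6, HoxB on 11, HoxC on 15 and HoxD on 2, and 31 of them were measured here out of 12393 genes in all. A Hox gene was counted as measured where a probe set carried its symbol and no other. Where a gene had several such probe sets, the one with the highest mean over all arrays stood for it. The 31 genes were 9 of HoxA, 9 of HoxB, 6 of HoxC and 7 of HoxD. By number, 6 were anterior (1 to 3), 12 central (4 to 8) and 13 posterior (9 to 13). Hoxb8, Hoxd3 and Hoxd4 were met only by probe sets that carry 2 symbols, and the remaining Hox genes were not analysed here.

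RNA came from mouse J1 embryonic stem (ES) cells, an established line grown on gelatin with serum and leukemia inhibitory factor (LIF) in the medium, and was hybridised to Affymetrix Mouse 430A 2.0 arrays. All 16 arrays share that line and medium. The knockdown arm had 2 Tgif1 KD arrays and 2 shControl arrays. The overexpression arm had 4 arrays labelled Tgif1 OE, 4 labelled Tgif2 OE and 4 BirA control arrays, whose genotype is given as BirA OE, after a bacterial biotin ligase. The labels name no promoter for the transgenes, no hairpin sequence, no clone and no separate cultures. Each p-value therefore rests on the spread between arrays within groups, which may be technical. In the main fit each gene's spread was estimated over all 5 groups together and moderated over genes. A knockdown p-value thus rests also on the arrays of the overexpression arm.

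Hox genes encode homeodomain transcription factors that give cells their position along the body axis, and their order in a cluster follows the order in which they are switched on and the place where they act, from anterior to posterior. In ES cells they are kept nearly silent by Polycomb complexes, whose mark lies on their promoters next to a mark of active genes, and retinoic acid and Wnt and Fgf signals switch them on during differentiation. Hox proteins bind DNA together with Pbx and Meis proteins of the TALE class of homeodomain proteins, the class to which Tgif1 and Tgif2, repressors that also bind Smad proteins, belong.

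The series followed expression across the genome when Tgif1 or Tgif2 was perturbed, and the comparisons below give the Hox genes' share in those changes. Of 31 Hox genes, 3 passed the threshold of an adjusted p under 0.05 in the knockdown, 0 on the arrays labelled Tgif1 OE and 3 on the arrays labelled Tgif2 OE, beside 25.4%, 20.9% and 35.4% of all genes. In the last comparison another scaling of the arrays changed which Hox genes passed, from 3 higher to 3 lower. Hoxd8 was the Hox gene with the largest rise in the knockdown, and it passed in each alternative fit of that comparison in which it was tested, which leaves out the fit without dim genes. On the deposited scale at most 2 genes of any cluster passed in 1 comparison.

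The targeted genes checked the labels. Tgif1 was at 7.29 ± 0.25 log2 (SD, n = 2) on Tgif1 KD and 10.69 ± 0.04 on shControl arrays, a change of -3.39 ± 0.10 (SE; adjusted p = 3.88e-11, limma). The arrays labelled Tgif1 OE had a lower Tgif1 signal than BirA control, 10.12 ± 0.10 against 10.69 ± 0.04 (SD, n = 4). Those labelled Tgif2 OE had Tgif1 at 10.27 ± 0.04 (SD, n = 4). Tgif2 was at 9.37 ± 0.09 on the arrays labelled Tgif2 OE and 9.26 ± 0.08 on BirA control arrays (SD, n = 4). It was higher on Tgif1 KD arrays, at 9.84 ± 0.007 against 9.04 ± 0.08 on shControl (SD, n = 2). Whether these probe sets see the transgenes is not known here, so both overexpression groups are named by their labels and a direction drawn from them is that of the labelled arrays. The 10 ES cell markers had means of 10.15 to 14.20 log2. The 19 fibroblast markers had means from 2.96 for Lum to 11.51 for Fn1, with Postn at 3.70, Col1a1 at 4.38, Thy1 at 6.50, Tagln at 8.26 and Vim at 10.51.

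Values are log2 intensities, in which a difference of 1 is a doubling, and there is no detection call in the data. Dim probe sets understate a change, and the brightness of different probe sets does not rank the amounts of their RNAs. The 31 Hox means ran from 2.98 for Hoxa2 to 6.38 for Hoxc9, with a median of 4.19 against 6.96 over all genes. When all genes were split by mean signal into 3 groups of 4131, 26 Hox genes were among the dimmest, 5 in the middle group and 0 among the brightest. Those 5, the Hox genes with the highest means, were Hoxc9, Hoxa9 (6.34), Hoxa7 (6.13), Hoxb3 (5.55) and Hoxc6 (5.42). For scale, 18 genes of adult tissues taken as silent in ES cells, such as albumin and rhodopsin, had means of 2.95 to 6.31, and only Hoxa9 and Hoxc9 lay above the highest of these.

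The Hox signals also varied little between arrays. The range over all 16 arrays had a median of 0.58 log2 over the Hox genes, against 0.70 over all genes and 0.61 over the dimmest genes. It was under 1 for 28 of 31, and the 3 others were Hoxc4 (1.47), Hoxd8 (1.12) and Hoxc13 (1.09). The other genes of HoxA (Hoxa3, Hoxa4, Hoxa5, Hoxa10, Hoxa11, Hoxa13), HoxB (Hoxb1, Hoxb2, Hoxb4, Hoxb5, Hoxb6, Hoxb7, Hoxb9, Hoxb13), HoxC (Hoxc5, Hoxc8) and HoxD (Hoxd1, Hoxd9, Hoxd10, Hoxd11, Hoxd12, Hoxd13) stayed within 2.73 to 5.59 on every array.

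**Figure D1:**
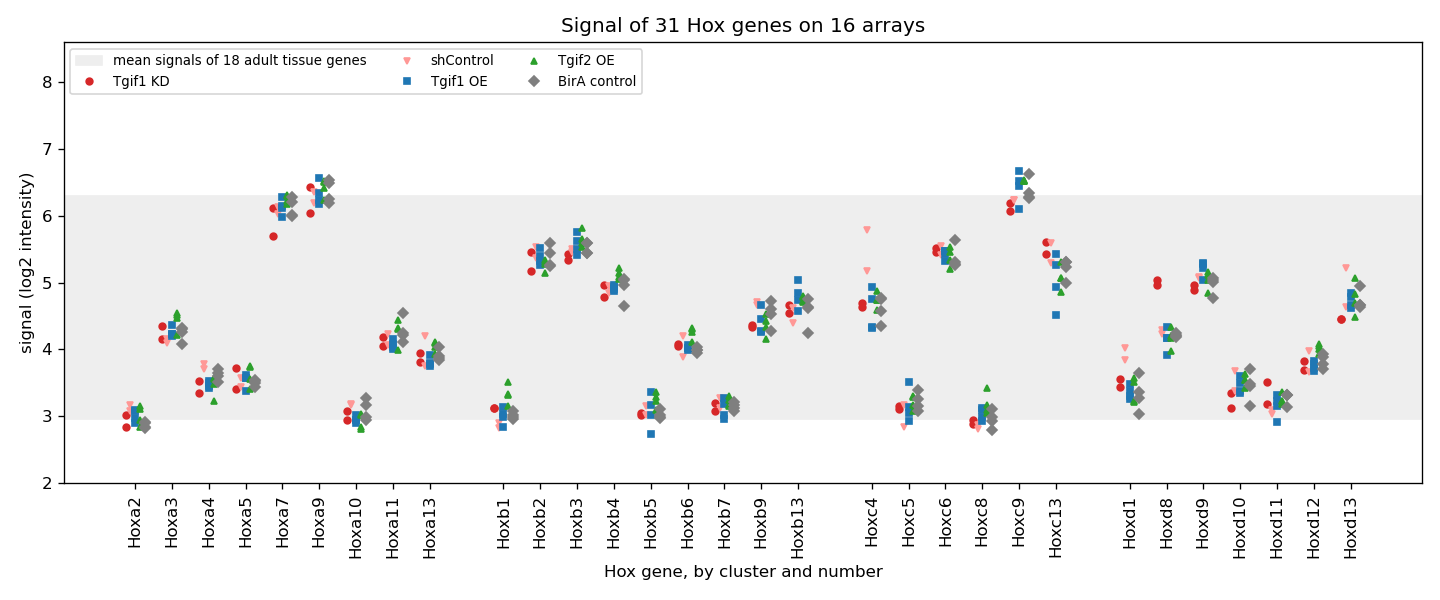
Signal (log2 intensity, vertical axis) of the 31 Hox genes on 16 arrays, 1 point per array, ordered by cluster and number along the horizontal axis and coloured by group. Only Hoxa9 and Hoxc9 have a mean above 6.31, the highest mean of 18 adult tissue genes, and the Tgif1 KD points of Hoxd8 and the shControl points of Hoxc4 stand above the rest.

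In the Tgif1 knockdown, 25.4% of all genes passed the threshold, an adjusted p under 0.05 in limma's moderated test with Benjamini-Hochberg adjustment over all 12393 genes, and 9.22% of the dimmest genes did. Of the Hox genes 3 of 31 passed (9.68%), all of them among the dimmest. These were 3 of the 26 dimmest Hox genes (11.5%), and 0 of the 5 in the middle group passed, where 32.0% of all genes did. Hoxd8 rose, and Hoxc4 and Hoxa4 fell, where 12.5% of all genes rose and 12.9% fell. The median Hox change was -0.05 log2, as over all genes (-0.05). A positive change was seen in 11 Hox genes and a negative one in 20, beside 5326 positive of all 12393 genes. The median size of a Hox change was 0.12, against 0.14 over the dimmest genes and 0.19 over all genes. The 95% interval of the change lay within 1 log2 on either side of 0 for 30 of 31 Hox genes, Hoxc4 being the exception, and within 0.5 for 21. Whether a fall in signal comes from fewer cells with the RNA or less RNA in each cannot be told apart in such bulk samples.

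The promoters of Hoxd8 and Hoxc4, the genes with the largest changes of either direction in the knockdown, and of Hoxd9, the measured neighbour of Hoxd8 within the cluster, are shown because the results turn on these genes. Each is 300 bases of the plus strand from RefSeq on GRCm38.p6, from 250 before to 50 after the annotated start, at chr2:74704365-74704664 for Hoxd8, chr15:103034145-103034444 for Hoxc4 and chr2:74697513-74697812 for Hoxd9. Capitals mark AGGTCA, a hexamer that retinoic acid receptors bind, or its reverse complement TGACCT.
Hoxd8: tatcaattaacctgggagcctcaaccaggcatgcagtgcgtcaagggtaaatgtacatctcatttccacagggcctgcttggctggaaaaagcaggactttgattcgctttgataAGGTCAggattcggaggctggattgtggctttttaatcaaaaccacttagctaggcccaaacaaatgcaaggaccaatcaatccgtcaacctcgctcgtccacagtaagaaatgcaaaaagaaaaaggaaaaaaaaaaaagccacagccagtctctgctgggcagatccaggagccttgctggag
Hoxc4: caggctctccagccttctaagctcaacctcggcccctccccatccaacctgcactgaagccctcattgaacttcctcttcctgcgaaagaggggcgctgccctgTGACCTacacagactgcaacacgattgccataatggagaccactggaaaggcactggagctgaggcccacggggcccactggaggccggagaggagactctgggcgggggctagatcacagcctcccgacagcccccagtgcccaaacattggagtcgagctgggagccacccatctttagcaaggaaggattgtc
Hoxd9: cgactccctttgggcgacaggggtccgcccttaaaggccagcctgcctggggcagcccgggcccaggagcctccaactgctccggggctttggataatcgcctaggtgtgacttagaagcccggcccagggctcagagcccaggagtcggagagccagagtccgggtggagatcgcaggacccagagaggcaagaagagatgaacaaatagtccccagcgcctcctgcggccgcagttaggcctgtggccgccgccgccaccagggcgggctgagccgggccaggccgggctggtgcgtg
The AGGTCA letters were on the printed strand in Hoxd8, on the other strand in Hoxc4 and not in this window of Hoxd9. They were on either strand in 5 of 20 promoters of the 18 Hox genes that the table holds (25%) and in 16.3% of all 32851 promoters of the same length. Both strands were searched for each motif. TGTCA, the core that Tgif proteins bind, was in 0 of the 3 windows printed, in 45% of the Hox promoters and in 45.4% of all. The longer CTGTCA, which contains it, was in 10% and 19.2%. TTTATG, the Cdx motif, was in 10% and 11.9%, and GGTTCA, another hexamer of these receptors, in 10% and 10.4%. Hox promoters held a median of 14.5 CpG dinucleotides against 7 in all promoters. Hoxd9 had 20, Hoxc4 9 and Hoxd8 6.

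Hoxd8, a central HoxD gene, measured 5.04 and 4.96 log2 on the Tgif1 KD arrays and 4.30 and 4.24 on the shControl arrays. It measured 3.92, 4.17, 4.33 and 4.17 on the arrays labelled Tgif1 OE and 4.20, 3.98, 4.18 and 4.34 on those labelled Tgif2 OE. The BirA control arrays gave 4.19, 4.21, 4.25 and 4.20. Both knockdown arrays therefore lay above all 14 others. The rise over shControl was 0.74 ± 0.12 log2 (SE, 95% interval 0.48 to 0.99, 1.67-fold; adjusted p = 3.21e-04, limma), and the adjusted p ran from 1.54e-04 to 0.00567 over its alternatives. As large a rise was seen in 534 of all genes (4.31%) and in 117 of the 4131 dimmest genes (2.83%).

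The genes beside Hoxd8 in the cluster did not pass the threshold. The changes were -0.15 ± 0.12 for Hoxd9 (SE; adjusted p = 0.406, limma), -0.29 ± 0.15 for Hoxd10 (0.186), 0.28 ± 0.13 for Hoxd11 (0.122) and -0.05 ± 0.11 for Hoxd12 (0.76). Hoxd13, the most posterior HoxD gene, had 4.45 and 4.45 on Tgif1 KD and 4.63 and 5.21 on shControl arrays, and its change of -0.47 ± 0.18 (0.0749) did not pass, although both knockdown arrays lay below all 14 others. On the other side of Hoxd8, the 2 probe sets that carry the symbols of both Hoxd3 and Hoxd4 had means of 5.52 and 3.68 on Tgif1 KD and 5.62 and 3.81 on shControl arrays.

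Hoxc4, a central HoxC gene, measured 4.63 and 4.69 on the Tgif1 KD arrays and 5.18 and 5.79 on the shControl arrays. It measured 4.33, 4.32, 4.75 and 4.93 on the arrays labelled Tgif1 OE and 4.74, 4.88, 4.59 and 4.74 on those labelled Tgif2 OE. The BirA control arrays gave 4.57, 4.35, 4.77 and 4.75. Here the shControl arrays lay above all 14 others, and the knockdown arrays lay within the range of the overexpression arm. A fall against shControl as large as that of Hoxc4 was seen in 250 of all genes (2.02%) and in 15 of the 4131 dimmest genes (0.363%). The Hoxc4 fall was -0.82 ± 0.22 (SE, 95% interval -1.28 to -0.36, adjusted p = 0.0109, limma). It did not pass without Tgif1 KD replicate 1 (adjusted p = 0.0655) or without shControl replicate 2 (-0.51, adjusted p = 0.165).

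Hoxa4, a central HoxA gene, measured 3.35 and 3.52 on Tgif1 KD and 3.78 and 3.71 on shControl arrays, with no overlap. Its fall was -0.31 ± 0.11 (SE; adjusted p = 0.0454, limma), and 3 of the 10 alternatives with 1 probe set per gene kept the call (adjusted p from 0.0328 to 0.292). As large a fall was seen in 1972 of all genes (15.9%) and in 331 of the 4131 dimmest genes (8.01%). A dimmer Hoxa4 probe set had a change of -0.08 ± 0.10 (0.628). Hoxd1, an anterior HoxD gene, showed the same placing of the arrays without passing: 3.43 and 3.56 on Tgif1 KD, 3.84 and 4.02 on shControl and 3.03 to 3.64 on the others, with a change of -0.43 ± 0.16 (0.0676).

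For 3 of the 31 Hox genes, Hoxa4, Hoxc4 and Hoxd1, both shControl arrays lay above the 14 others, as for 5.23% of all genes. Both Tgif1 KD arrays lay above all others for Hoxd8 alone and below for Hoxd13 alone, against 15.9% and 16.3% of all genes. The Tgif1 KD and shControl arrays did not overlap for 16 of 31 Hox genes and for 69.2% of all genes. Beside these results, the fibroblast markers summed to 7946 to 7961 in linear signal on Tgif1 KD and 6103 to 6299 on shControl arrays, with 3 of 19 higher and 2 lower. The 7 neural markers summed to 367.1 to 368.3 on Tgif1 KD and 544.1 to 590.4 on shControl arrays, with 0 higher and 1 lower. The 10 ES cell markers summed to 74456 to 76068 and 65719 to 65739, with 1 higher and 0 lower. The 8 mesoderm markers summed to 433.5 to 447.7 and 388.9 to 402.7, with 1 higher and 0 lower. The 18 adult tissue genes summed to 595.8 to 598.0 and 680.4 to 695.0, with 0 higher and 3 lower, and the 8 blood markers to 141.5 to 142.7 and 143.9 to 150.1, with 0 in either direction. None of these sums overlapped between the 2 groups. The 5′ minus 3′ signal of the Gapdh control probe sets, a sign of RNA quality, was -0.09 on Tgif1 KD and -0.21 on shControl arrays, without overlap. Their part in the Hox results was not tested.

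**Figure D2:**
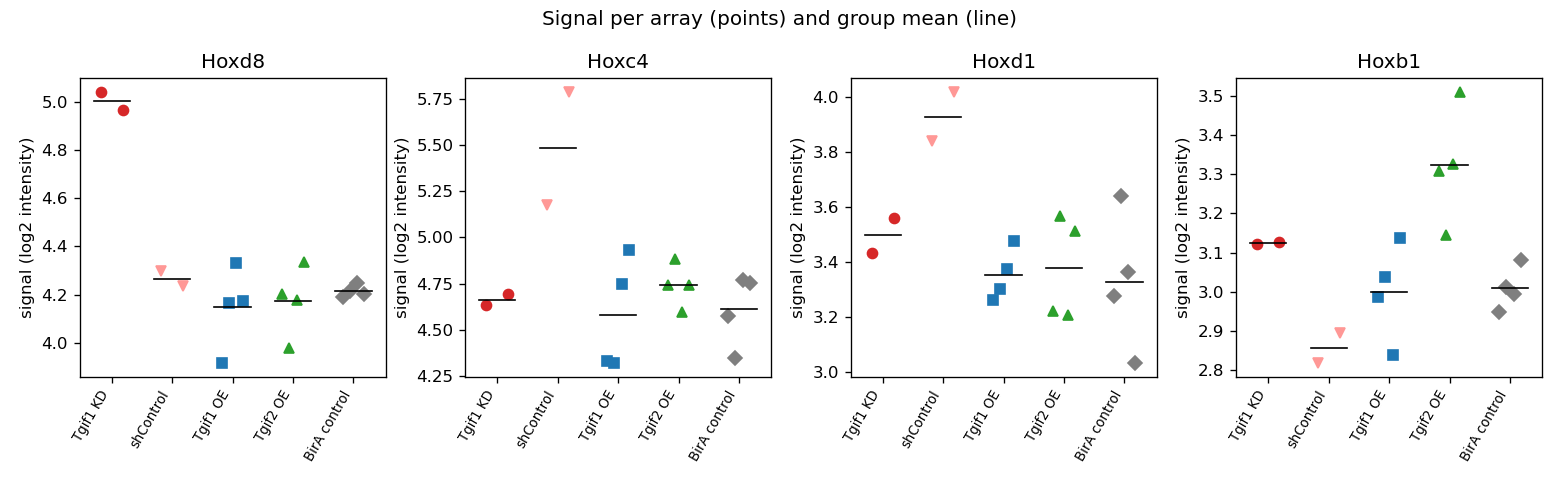
Signal (log2 intensity) of Hoxd8, Hoxc4, Hoxd1 and Hoxb1 on each of the 16 arrays, with a line at each group's mean. The 2 Tgif1 KD arrays are highest for Hoxd8 (4.96 and 5.04), the 2 shControl arrays are highest for Hoxc4 and Hoxd1, and the Tgif2 OE arrays are highest for Hoxb1.

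By cluster, 1 of 9 HoxA, 0 of 9 HoxB, 1 of 6 HoxC and 1 of 7 HoxD genes passed in the knockdown, where 25.4% of all genes did. The median changes were -0.09, -0.05, 0.04 and -0.15. By class, the 3 genes that passed on the deposited scale were all central, with 0 of 6 anterior and 0 of 13 posterior genes. After quantile normalization the anterior gene Hoxb1 passed as higher (0.34, adjusted p = 0.0267, limma) and Hoxa4 did not pass (0.0756). The deposited Hoxb1 change was 0.27 ± 0.11 (SE, adjusted p = 0.0857). The posterior genes had 3 positive and 10 negative changes and a median of -0.09. Of all 12393 genes 5326 had a positive change, and their median was -0.05.

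**Figure D3:**
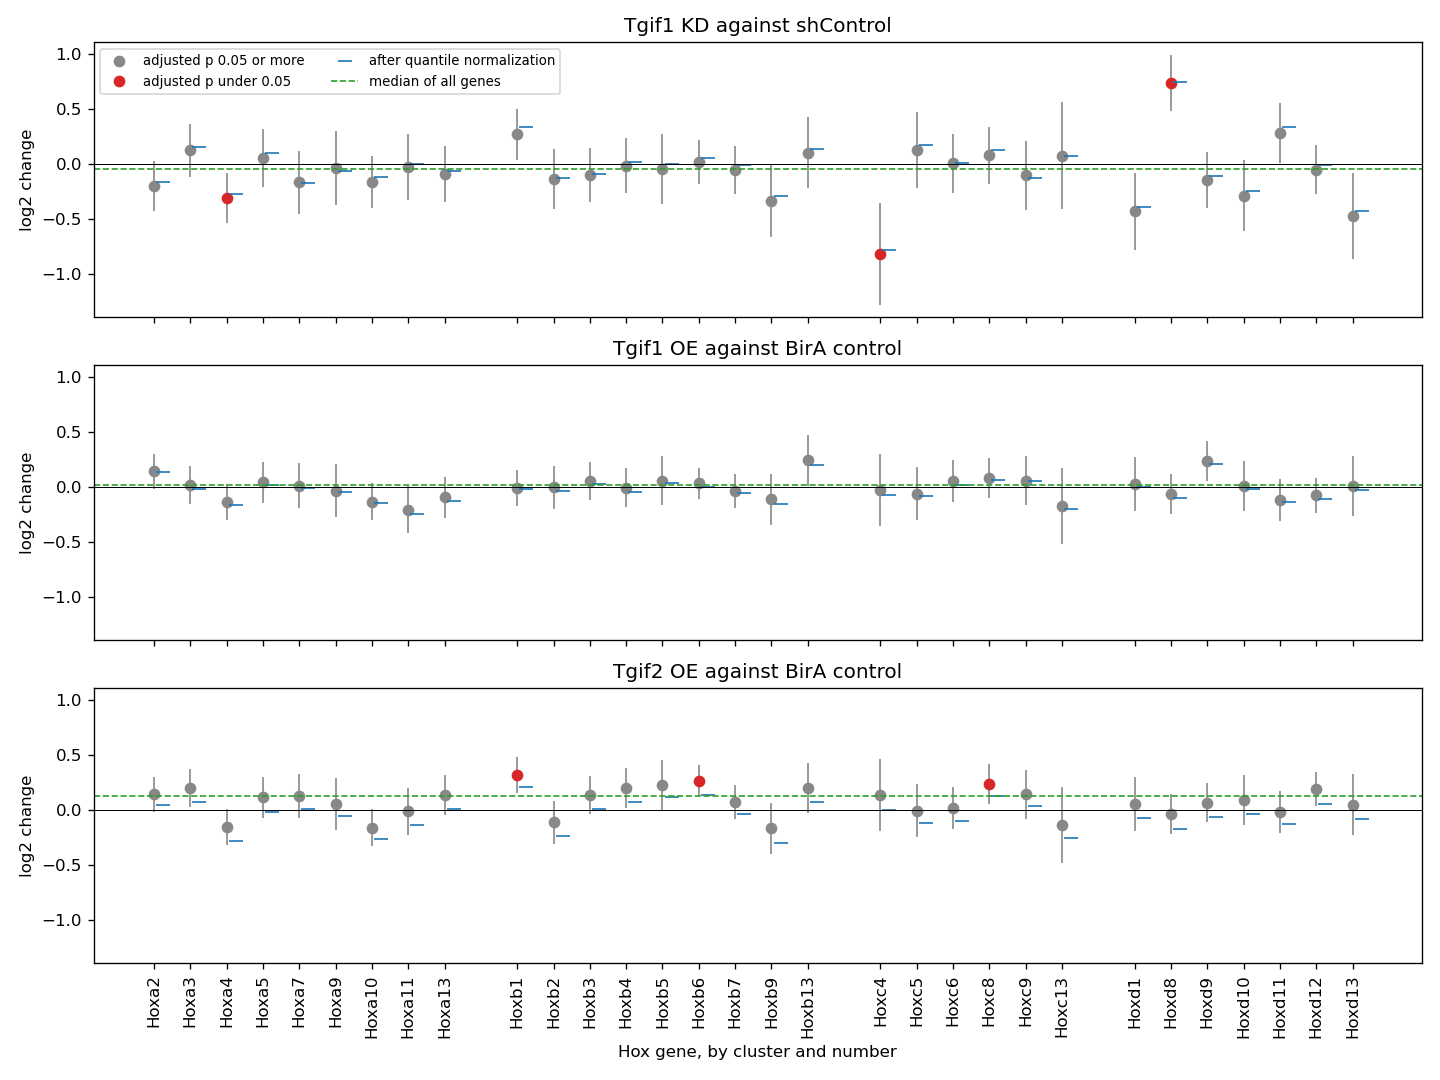
Log2 change with its 95% interval (vertical axis) for each of 31 Hox genes (horizontal axis) in the Tgif1 knockdown and on the arrays labelled Tgif1 OE and Tgif2 OE, each against its control on the deposited scale; the dashed line is the median change of all genes. In the knockdown Hoxd8 (0.74) and Hoxc4 (-0.82) lie farthest from 0, and on the arrays labelled Tgif1 OE every change lies between -0.21 and 0.24.

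Against BirA control, 20.9% of all genes (11.4% higher, 9.51% lower) and 7.36% of the dimmest genes passed on the arrays labelled Tgif1 OE, and 0 of 31 Hox genes did in limma's test. At an unadjusted p under 0.05 there were 2 of 31, Hoxb13 and Hoxd9, beside 3926 of all 12393 genes. The Hox changes ran from -0.21 to 0.24, 15 positive and 16 negative (6682 positive of all 12393 genes), with a median of -0.01. Their median size was 0.05, against 0.09 over the dimmest genes and 0.12 over all genes. The groups overlapped for every Hox gene, whereas they did not for 23.1% of all genes. The 95% interval lay within 0.5 log2 of 0 for 30 of 31 Hox genes, all but Hoxc13.

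Hoxd9, a posterior HoxD gene, measured 5.29, 5.29, 5.04 and 5.22 on the arrays labelled Tgif1 OE and 5.01, 5.04, 4.78 and 5.06 on BirA control arrays. The third array of each group was the lowest of its 4. The change was 0.23 ± 0.08 (SE; adjusted p = 0.0615, limma), and with the replicate number as a block it passed (adjusted p = 0.00181). It also passed in the fit that separates replicates 1 and 2 from 3 and 4 (0.0196) and with replicates 1 and 2 alone (0.0155), but not with replicates 3 and 4 alone (0.257). Hoxb13, the most posterior HoxB gene, measured 4.58, 4.75, 4.85 and 5.03 against 4.62, 4.24, 4.75 and 4.64, and its change of 0.24 ± 0.11 (adjusted p = 0.139) did not pass under any alternative. Of the dimmer probe sets, 1 of Hoxc6 was at 4.11 on the arrays labelled Tgif1 OE and 3.89 on BirA control, and it passed when every probe set was tested (0.21 ± 0.07, adjusted p = 0.0426).

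The values of the Tgif2 OE arrays lay higher as a whole, with a median change over all genes of 0.12 log2 against BirA control, so changes against that median and after quantile normalization of all arrays stand beside the deposited ones. On the deposited scale 35.4% of all genes passed, 28.7% higher and 6.69% lower, and 26.2% of the dimmest genes passed. After quantile normalization the shares were 13.7% higher and 13.1% lower. Of the Hox genes 3 of 31 passed as higher and 0 as lower on the deposited scale, and 0 as higher and 3 as lower after quantile normalization. These were different genes, Hoxb1, Hoxb6 and Hoxc8 in the first case and Hoxa4, Hoxa10 and Hoxb2 in the second. The median deposited Hox change was 0.09, and after quantile normalization it was -0.04.

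Hoxb1, an anterior gene and an early target of retinoic acid, measured 3.31, 3.14, 3.33 and 3.51 on the arrays labelled Tgif2 OE and 2.95, 3.01, 2.99 and 3.08 on BirA control arrays. The 4 Tgif2 OE arrays stood above the 12 others on the deposited scale, as for 8.17% of all genes. The gap was small, from 3.137 for the highest of the others to 3.145 for the lowest Tgif2 OE array. The deposited change was 0.31 ± 0.08 (SE; adjusted p = 0.00555, limma), or 0.19 above the median of all genes, and after quantile normalization it was 0.20 and missed the threshold (0.0548). Hoxb6, a central HoxB gene, measured 4.26, 4.11, 4.31 and 4.32 against 3.99, 4.04, 3.99 and 3.94. Only these 2 Hox genes had no overlap on the deposited scale, as did 32.6% of all genes. It changed by 0.26 ± 0.07 (0.0068), or 0.14 above the median, and by 0.13 after quantile normalization (0.15). With replicates 1 and 2 alone Hoxb6 did not pass (0.204). Hoxc8, a central HoxC gene, measured 3.17, 3.05, 3.10 and 3.42 against 2.99, 2.79, 3.11 and 2.92, and its change of 0.23 ± 0.08 (0.0455) kept the call in 7 of 17 alternatives (adjusted p from 0.0223 to 0.396).

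The genes that passed as lower after quantile normalization overlapped BirA control on the deposited values. Hoxa4 measured 3.23, 3.48, 3.57 and 3.56 against 3.65, 3.51, 3.70 and 3.60, and the normalized change was -0.28 (adjusted p = 0.0115, limma). On the deposited scale this probe set changed by -0.16 (0.125). The dimmer Hoxa4 probe set went the other way there, by 0.23 ± 0.07 (SE; 0.0268 when every probe set was tested). Hoxa10, a posterior HoxA gene, measured 2.81, 3.04, 2.83 and 3.02 against 3.16, 3.27, 2.94 and 2.99 (-0.26, 0.0338). Hoxb2, an anterior HoxB gene, measured 5.30, 5.14, 5.28 and 5.34 against 5.26, 5.24, 5.59 and 5.44 (-0.24, 0.0491). With the replicate number as a block Hoxa3 passed too, at 0.20 deposited (0.0472). The intervals of all 31 deposited changes lay within 0.5 log2 of 0. The fibroblast markers summed to 5953 to 6620 on the arrays labelled Tgif2 OE, 5353 to 6099 on those labelled Tgif1 OE and 4387 to 4976 on BirA control. On the deposited scale 7 of 19 were higher and 0 lower on the first (3 and 0 after quantile normalization), and 6 higher and 1 lower on the second, led by Tagln and Acta2 in both. The neural markers summed to 660.8 to 810.0 on the arrays labelled Tgif2 OE, 543.6 to 614.6 on those labelled Tgif1 OE and 527.2 to 551.9 on BirA control, with 3 of 7 higher and 0 lower on the first (2 and 0 after quantile normalization), and 1 higher and 0 lower on the second. The ES cell markers summed to 60177 to 68069, 51573 to 56822 and 59486 to 64995 in the same order, with 3 of 10 higher and 1 lower on the first (0 and 2 after quantile normalization), and 0 higher and 5 lower on the second. Of 8 mesoderm markers 3 were higher and 1 lower on the first (1 and 1), and their sums overlapped BirA control on both. The adult tissue genes summed to 642.1 to 697.7 on the first and 574.8 to 613.4 on BirA control, with 2 of 18 higher and 0 lower (1 and 1), and the sums of the blood markers overlapped. The part of these markers in the Hox values was not tested.

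Set against each other on the deposited scale, the arrays labelled Tgif1 OE and Tgif2 OE differed in 19.7% of all genes, 2.25% higher and 17.4% lower on the former, and in 14.8% of the dimmest genes, with a median change over all genes of -0.10. Of the Hox genes 0 were higher and 3 were lower on the Tgif1 OE arrays: Hoxb1 by -0.32 ± 0.08 (SE; adjusted p = 0.0105, limma), Hoxd12, a posterior HoxD gene, by -0.27 ± 0.07 (0.0229) and Hoxb6 by -0.23 ± 0.07 (0.0265). Against the median of all genes these differences were -0.22, -0.16 and -0.13. Hoxd12 measured 3.68, 3.72, 3.82 and 3.78 on the Tgif1 OE arrays and 4.00003, 3.93, 4.06 and 4.07 on the Tgif2 OE arrays. The 2 groups did not overlap for 5 of 31 Hox genes and 24.3% of all genes. After quantile normalization 0 Hox genes differed, against 9.97% of all genes. With the replicate number as a block 5 Hox genes passed, beside 3940 of all 12393 genes. Hoxa13 (0.0494) as lower and Hoxd9 (0.0136) as higher were added.

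The knockdown effect was also set against the Tgif1 OE effect, a contrast in which 27.6% of all genes passed. Of the Hox genes 2 of 31 passed, Hoxd8 with a difference of 0.80 ± 0.15 (SE; adjusted p = 7.51e-04, limma) and Hoxc4 with -0.79 ± 0.26 (0.0365). The Tgif1 OE effects themselves were -0.07 ± 0.08 for Hoxd8 and -0.03 ± 0.15 for Hoxc4. The Hoxd8 difference passed in all 21 alternatives that tested it and the Hoxc4 difference in 12 of 21. Hoxc4 missed the threshold in the other 9, with adjusted p-values of 0.0564 to 0.244. These left out Tgif1 KD replicate 1 or 2, shControl replicate 2, Tgif1 OE replicate 3 or 4, or BirA control replicate 1 or 2, or kept only replicates 1 and 2 of the overexpression arm in either of 2 fits. With the replicate block Hoxa2 (0.0248) and Hoxd9 (0.002) were added, where 4698 of all 12393 genes passed.

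**Figure D4:**
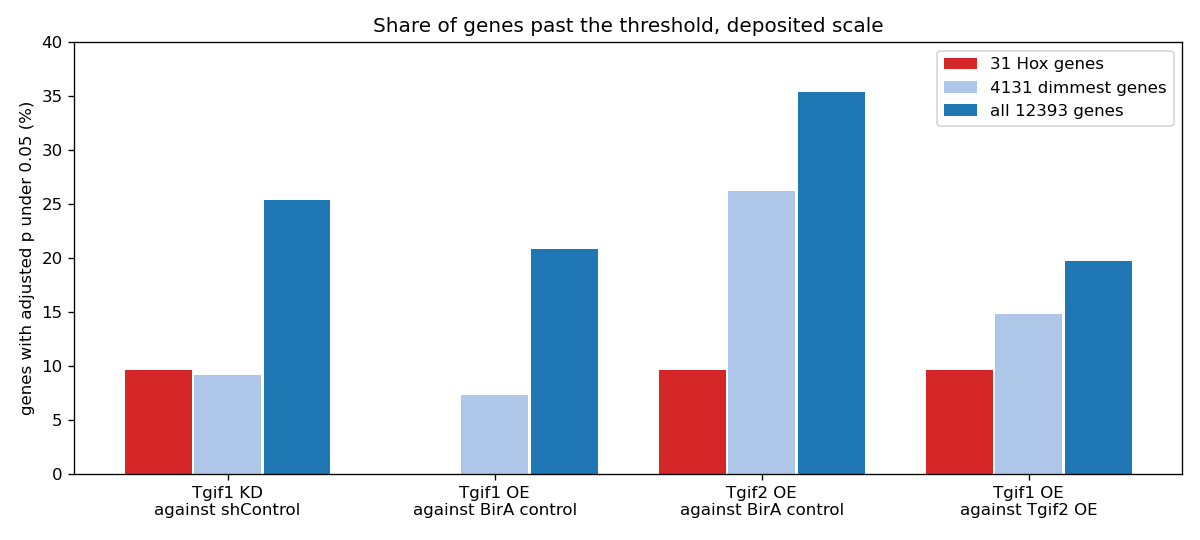
Share of genes with an adjusted p under 0.05 (percent, vertical axis from 0) in each comparison on the deposited scale, for the 31 Hox genes, the 4131 dimmest genes and all 12393 genes. The Hox share is 9.68% in the knockdown, beside 9.22% of the dimmest genes, and 0 on the arrays labelled Tgif1 OE. It is taken over all 31 Hox genes. Of the 26 among the dimmest, 11.5% passed in the knockdown.

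The counts of related genes that follow stand beside the shares of all genes that passed: 12.5% higher and 12.9% lower in the knockdown, 11.4% and 9.51% for Tgif1 OE, and 28.7% and 6.69% for Tgif2 OE, or 13.7% and 13.1% after quantile normalization. Whether any of these groups of genes differs from all genes was not tested.

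Among the partners of Hox proteins, of 8 measured TALE cofactors 3 rose and 1 fell in the knockdown. Meis1, whose product binds DNA with Hox and Pbx proteins, rose by 1.98 ± 0.18 (SE; adjusted p = 2.03e-06, limma), Meis2 by 1.72 ± 0.25 (1.19e-04) and Pbx3 by 0.88 ± 0.09 (4.51e-06), while Pbx2 changed by -0.56 ± 0.11 (0.00109). On the arrays labelled Tgif1 OE 1 rose, Pbx3 (0.19 ± 0.06, 0.0384), and 1 fell, Pknox1 (-0.42 ± 0.14, 0.046). On those labelled Tgif2 OE 1 was higher, Pbx2 (0.28 deposited), and after quantile normalization 0 were higher and 2 lower.

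The Cdx genes, which switch on central Hox genes, and the ParaHox and Evx genes numbered 8, all measured. In the knockdown 0 rose and 1 fell, Evx1, which lies at the posterior end of HoxA (-0.43 ± 0.11 SE, adjusted p = 0.00814, limma). For Tgif1 OE 0 passed. On the arrays labelled Tgif2 OE 3 were higher, Cdx2 (0.57 deposited), Gsx2 (0.28) and Cdx4 (0.26), and after quantile normalization 0 were higher and 1 was lower.

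Of 15 measured genes of retinoic acid binding, metabolism and reception, 0 rose and 4 fell in the knockdown, where 25.4% of all genes passed. They included Stra8, a retinoic acid target of germ cells (-1.61 ± 0.17 SE, adjusted p = 6.91e-06, limma), and the retinoic acid binding proteins Crabp1 (-1.24 ± 0.24, 0.00146) and Crabp2 (-0.97 ± 0.29, 0.0235). For Tgif1 OE 3 rose and 1 fell. Crabp2 (1.47 ± 0.21, 1.44e-04) and Cyp26a1, which breaks retinoic acid down (0.52 ± 0.12, 0.00709), were among those that rose. On those labelled Tgif2 OE 5 were higher and 2 lower, or 4 and 4 after quantile normalization, beside 35.4% of all genes passing on the deposited scale. Crabp2 (1.12) and Cyp26a1 (0.79) were higher on both scales, here as normalized changes.

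Among 24 measured Polycomb subunits 6 rose and 6 fell in the knockdown, and the largest rises were those of Scml2 (2.98 ± 0.17 SE, adjusted p = 1.81e-08, limma) and Bmi1 (2.19 ± 0.14, 6.60e-08). Cbx2, a chromobox subunit that reads the Polycomb mark, changed by -0.70 ± 0.14 (0.00203). Ezh2, the enzyme that sets it, changed by -0.24 ± 0.08 (0.044), and Eed, its partner, by -0.30 ± 0.07 (0.00852). For Tgif1 OE 3 rose and 4 fell, and on those labelled Tgif2 OE 8 were higher and 0 lower, or 3 and 3 after quantile normalization. On the deposited scale 28.7% of all genes were higher there and 6.69% lower. Of 9 measured Trithorax and H3K27 demethylase genes, which act against Polycomb, 2 rose and 1 fell in the knockdown, 0 rose and 2 fell on the Tgif1 OE arrays, and 1 was higher and 0 lower on the Tgif2 OE arrays (0 and 0 after quantile normalization).

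Of 9 secreted signals that pattern Hox expression, 3 rose in the knockdown, Wnt5a (1.39 ± 0.23 SE, adjusted p = 3.45e-04, limma), Fgf4 (0.69 ± 0.08, 2.77e-05) and Nodal (0.63 ± 0.07, 1.38e-05), and 1 fell, Fgf8 (-0.46 ± 0.14, 0.029). On the arrays labelled Tgif1 OE 1 rose and 4 fell, Bmp4 the furthest (-1.53 ± 0.13, 1.62e-06). On those labelled Tgif2 OE 2 were higher and 1 lower, or 2 and 2 after quantile normalization, with Wnt3 at 0.58 and Bmp4 at -1.10 as normalized changes.

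Genes listed for the flanks of the clusters were counted in the same way, and not all are close neighbours. In the stretch of neighbouring genes examined, Evx1 was the only measured listed gene at HoxA, and Evx2 and Mtx2 the only ones at HoxD. Snx10, Hibadh and Nfe2l2 lie farther out. In the knockdown 2 of 6 measured genes listed for HoxA rose and 2 fell (Snx10 by -0.84 ± 0.13 SE, adjusted p = 1.57e-04, limma, and Hibadh by 0.52 ± 0.08, 1.87e-04). Of 7 listed for HoxB 0 rose and 3 fell, and of 7 listed for HoxC 0 rose and 1 fell, Nfe2, a blood transcription factor (-0.98 ± 0.15, 1.97e-04). Of 6 listed for HoxD 2 rose and 1 fell, among them Nfe2l2, which drives the response to oxidative stress (0.89 ± 0.09, 3.09e-06). Whether their share of calls differs from that of the Hox genes was not tested.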

How the data were processed

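Per the submitters' processing notes, the authors made the deposited log2 intensities with RMA, and limma is also named for the Tgif2 OE samples alone. Whether those arrays were normalized apart from the others is not known here, which bears on every comparison with them. The labels give Cy3 as the dye, while the design names an Affymetrix array, and this was not resolved. No version and no genome build is named in the sources used here. Of 22690 probe sets, 64 were controls, 20380 carried 1 symbol, 691 several and 1555 none. Each of 12393 genes was taken from its highest-mean probe set, without a filter on signal.

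limma 3.58.1 (lmFit and eBayes, R 4.3.3) estimated 5 group means from the 16 arrays, with Benjamini-Hochberg adjustment over all genes and a threshold of 0.05. Members, lists and the rule for named genes (targets, Hox genes that passed, the 5 with the highest means, up to 3 members of a list) were chosen with earlier results of these data known. Ezh2, Eed, and Hox genes that did not pass but whose arrays stand apart, were named after their values were seen. The alternatives were other scalings, other probe sets, no dim genes, another variance model, fewer arrays, and the replicate number, or replicates 1 and 2 against 3 and 4, as a factor. The number of arrays limits the precision.

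In the overexpression arm, same-numbered arrays deviated together from the means of their groups, with correlations of 0.32 to 0.56 in all 12 comparisons. The replicate number was used as a block in an alternative fit, although the labels state no pairing. An array's own number was its best match in 5 of 24. In the knockdown arm the correlation was -0.004.

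The fit was tested on simulated data with 12393 genes, of which 100 were changed by 0.5 log2 and 100 by 1 log2. They were drawn from genes of any signal, and the noise was normal and independent between arrays. In the knockdown comparison it recovered 45% of changes of 0.5 log2 and 91% of changes of 1 log2, and against BirA control 78% and 100% for Tgif1 OE. Far fewer genes changed there than passed in the data, which moves the adjusted threshold. The rates are therefore not the sensitivity for these data or for the dim Hox genes.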

Additional observations from a re-analysis of the deposited data

Results flagged for a closer look

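Among 93 groups of 4 arrays, 3 had 1 array far from the other 3, while chance gives about 1 in 20. All were BirA control groups. Replicate 4 was high for Hoxc6 (5.639 log2, the others 5.257 to 5.304) and for Hoxd13 (4.943, the others 4.628 to 4.665). Replicate 3 was low for Hoxd11 (3.138, the others 3.312 to 3.321).

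For Hoxd8 and Hoxc4 the knockdown effect and the Tgif1 OE effect differed by limma's test of the difference itself, by 0.8019 log2 (adjusted p = 7.51e-04) and by -0.7912 (adjusted p = 0.0365).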

How the results depend on the processing

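Most Hox genes lie at signals where a change is understated, and 26 of 31 drop out when the 4131 dimmest genes are left out. Then 0 of the 5 Hox genes still tested passed in any comparison. These 5, all of the middle group by signal, did not pass in the main fit either. Of all genes in that group, 32.0% passed there in the knockdown, 29.6% for Tgif1 OE and 38.4% for Tgif2 OE. Whether the 5 differ from that group was not tested.

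After quantile normalization 3 Hox genes passed in the knockdown (2 higher, Hoxd8 and Hoxb1, and 1 lower, Hoxc4) and 3 for Tgif2 OE (0 higher, 3 lower). Between Tgif1 OE and Tgif2 OE 0 passed, and 4 for the difference of effects. Of all 12393 genes 3217, 3324, 1235 and 3468 passed in these fits. With each array's median subtracted, the Hox counts were 3 for Tgif2 OE (0 higher, 3 lower) and 0 between Tgif1 OE and Tgif2 OE. Those of all genes were 3276 and 1156. With only the 2 groups compared in the fit, 6 Hox genes passed in the knockdown and 5 between Tgif1 OE and Tgif2 OE. Of all 12393 genes 4289 and 1696 did.

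With the replicate block, 6 passed in the knockdown (where same-numbered arrays did not deviate together) and 1 for Tgif1 OE. Between Tgif1 OE and Tgif2 OE 5 passed, and 4 for the difference of effects. Of all 12393 genes 4404, 3719, 3940 and 4698 passed in these fits. With replicates 1 and 2 against 3 and 4 as a factor, 1 passed for Tgif1 OE, 5 for Tgif2 OE and 4 for the difference. Of all genes 4101, 6007 and 5012 did. With replicates 1 and 2 alone, 2 passed for Tgif1 OE, and 1 between Tgif1 OE and Tgif2 OE, in the higher direction. The counts of all genes were 3241 and 3032. With every probe set tested, 1 Hox gene passed for Tgif1 OE, beside 3801 of 20380 probe sets.

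Leaving out 1 array gave 1 to 3 in the knockdown, 0 to 1 for Tgif1 OE, 2 to 4 for Tgif2 OE, 1 to 3 between Tgif1 OE and Tgif2 OE and 1 to 3 for the difference. In the knockdown 1 passed without Tgif1 KD replicate 1 and without shControl replicate 2, Hoxd8 in both, and 3 passed without Tgif1 KD replicate 2 (2 higher, 1 lower). For Tgif1 OE 1 passed without Tgif1 OE replicate 3. Between Tgif1 OE and Tgif2 OE 1 passed without Tgif1 OE replicate 2 or Tgif2 OE replicate 3. Over all genes, leaving out 1 array gave 2053 to 2372 for Tgif1 OE, 3750 to 4215 for Tgif2 OE and 1729 to 2121 between them. An arm left with 1 array borrows its spread from the other groups.

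For 12 Hox genes, the 7 that passed in a comparison and the 5 with the highest means, 11 values passed. Of their 185 refits, 130 passed, 55 did not and 0 changed sign. Of 884 refits of the 49 values that did not pass, 8 passed, and 108 changed sign without passing. Over all genes, the count moved by over 1.5 times in the knockdown from 3146 to 2012 without shControl replicate 2, and for Tgif1 OE from 2587 to 4101 with the factor for replicates 1 and 2. Between Tgif1 OE and Tgif2 OE it moved from 2439 to 1235 (quantile), 1156 (median), 3940 (block) and 4444 (that factor). With every probe set tested it was 3847 there, and for the difference of effects it moved from 3418 to 5165. The counts of 3847 and 5165 are of 20380 probe sets and not of 12393 genes. Where no construction of the alternative shows it, the cause was not tested.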

Other observations

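The probe set that carries the symbols of both Hoxb8 and Hoxb7 had means of 2.87 log2 on Tgif1 KD, 2.94 on shControl, 2.94 on Tgif1 OE, 3.21 on Tgif2 OE and 3.001 on BirA control arrays. Hoxa11os, the transcript antisense to Hoxa11, had means of 3.17, 3.24, 3.23, 3.50 and 3.37 in the same order.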
